A study of Homo sapiens with 5 samples.

Results

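The genes described here are 10 regulators of heart muscle: NKX2-5, HAND1, HAND2, MEF2A, MEF2C, MEF2D, MYOCD, HOPX, SMYD1 and PROX1. They were taken by symbol from the 27139 genes of the deposited tables, where each of the 10 has 1 entry. The hg19 spans given below are those of these entries. All 10 passed the filter on low counts. The libraries were made from polyadenylated RNA of wild-type H1 cells (an established human embryonic stem cell line, kept in TeSR medium), collected at day 30 of differentiation. The GiWi group (2 libraries) received a GSK3 inhibitor and an inhibitor of Wnt/β-catenin signalling, with a treatment time of 48 h. The YAPi group (3 libraries) received an inhibitor of YAP, the coactivator restrained by the Hippo pathway, together with Activin, a TGF-beta family ligand, with a treatment time of 24 h. All cells share the H1 background, and agent and treatment time differ together between the groups. The study set the cardiomyocyte cultures from these protocols side by side.

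NKX2-5 is a homeodomain factor that binds promoters of heart muscle genes together with GATA and T-box factors. HAND1 and HAND2 are basic helix-loop-helix factors of the ventricular chambers and outflow tract, and pair with E proteins. MEF2A, MEF2C and MEF2D bind AT-rich sites through a MADS box and are held in check by class IIa histone deacetylases. MYOCD (myocardin) is a coactivator of serum response factor, HOPX is a small homeodomain protein that does not bind DNA, SMYD1 is a muscle methyltransferase, and PROX1 is a homeodomain factor with roles in heart muscle, lymphatic endothelium, liver and retina.

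The libraries held 43661188 to 48904302 exon counts. YAPi replicate 3 stood apart from YAPi replicates 1 and 2: on the second principal component of log2 CPM (counts scaled to library size), which held 7.54% of the variance, it lay at -52.5 against 24.7 and 23.2. Of the sarcomere genes, 1 of 17 rose and 2 fell between the groups, and fewer passed without either GiWi library. Over all tested genes 57.1% were called. Without YAPi replicate 3, 3 rose and 8 fell, against 74.9% of all tested genes called. All 17 sarcomere genes on the list used here as a measure of heart muscle transcripts were lower in it, at a median log2 difference of -1.22, while the median over all tested genes was -0.0020. The defining marker TNNT2, cardiac troponin T, was present in every library, at 693, 659.6, 555, 543 and 217 FPKM (a level scaled to transcript length and library size) in GiWi replicates 1 and 2 and YAPi replicates 1, 2 and 3. Results are therefore given with and without YAPi replicate 3. In bulk RNA, fewer cells of a type and less RNA per cell cannot be told apart. The labels do not say whether each library had its own culture. The p-values therefore cover variation among the 5 libraries only, and part or all of it could be technical.

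The regulators did not move as a block. Throughout, rose and fell mean higher and lower in YAPi than in GiWi. With all 5 libraries, HOPX rose, HAND2, MEF2C and MEF2D fell, and 6 did not pass the test. Thus 4 of 10 were called at an adjusted p under 0.05 in edgeR's quasi-likelihood test, where 57.1% of the 17634 genes tested were called, 30.2% higher and 26.9% lower (5325 and 4740 genes, against 3928 and 7036 with scaling by library size alone). Their median log2 fold change was -0.17, against 0.01 for all tested genes. In 6 of 10 the libraries of the groups did not overlap, against 75.8% of all genes. Without YAPi replicate 3, 8 of 10 were called, 4 higher and 4 lower, against a background of 74.9%. With limma-voom and library weights 6 of 10 were called, against 73.3% of all genes, with scaling by library size alone 5 of 10, against 62.2%, and with a replicate block 8 of 10, against 77.0%. A log2 fold change below is YAPi over GiWi ± SE from edgeR on TMM-scaled counts, and its adjusted p is over all genes tested.

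**Figure D1:**
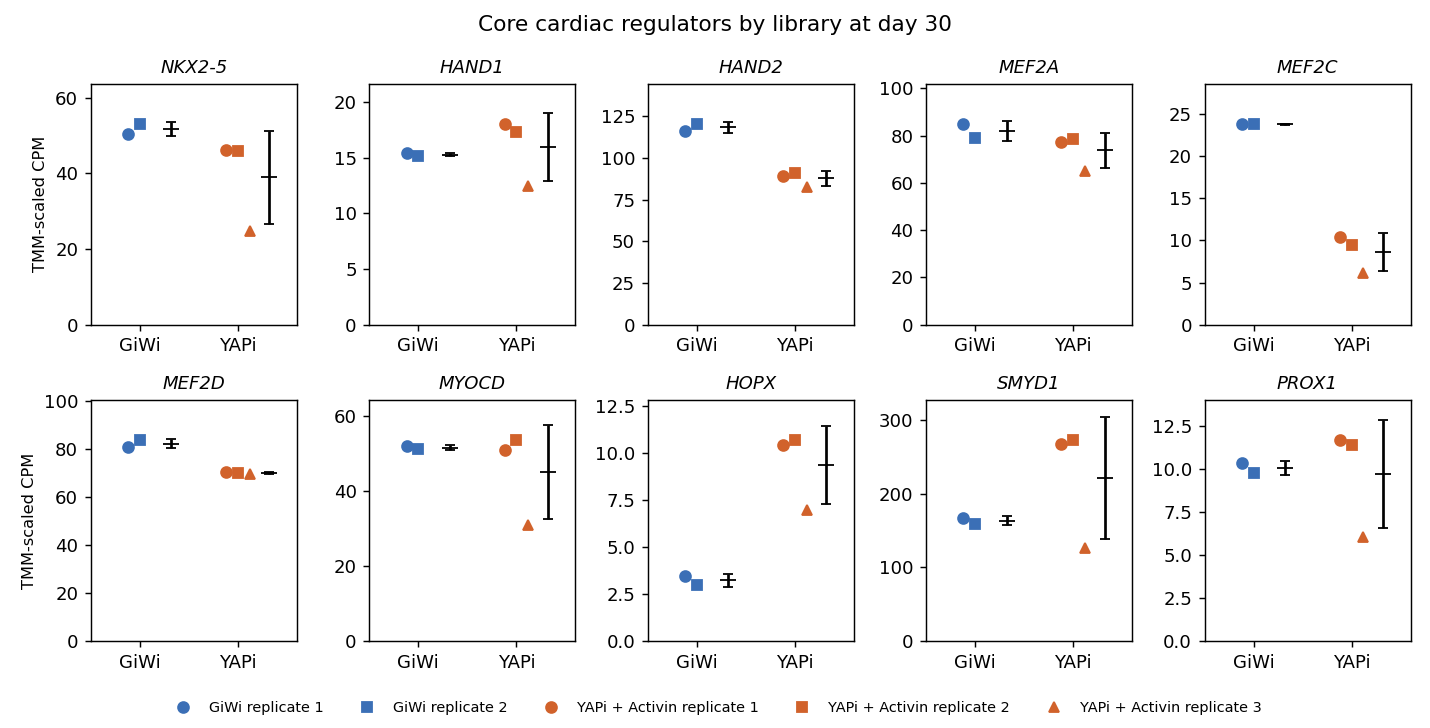
TMM-scaled CPM (vertical axis, from 0) of the 10 regulators, 1 panel per gene; points are libraries, with the mean and SD (n = 2 for GiWi, n = 3 for YAPi) beside them. HOPX lies higher and MEF2C lower in all 3 YAPi libraries, and YAPi replicate 3 (triangle) is the lowest YAPi library in every panel.

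NKX2-5 was lower in every YAPi library, by a margin that depended on YAPi replicate 3. It measured 50.5 and 53.1 CPM in the GiWi libraries and 46.2, 45.8 and 24.7 CPM in YAPi replicates 1, 2 and 3. The groups did not overlap, and replicate 3 lay well under the other YAPi libraries. The means were 51.8 ± 1.87 CPM (SD, n = 2) and 38.9 ± 12.3 CPM (SD, n = 3), and the difference did not pass (log2 fold change -0.41 ± 0.27, edgeR adjusted p = 0.24). Without YAPi replicate 3 it passed at a smaller size (-0.17 ± 0.05, edgeR adjusted p = 0.0065). In hg19, NKX2-5 spans chromosome 5, 172659107 to 172662315, on the minus strand.

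HAND2 fell and HAND1 did not pass the test. HAND2 measured 116 and 120.4 CPM in GiWi and 89.4, 90.9 and 82.5 CPM in YAPi replicates 1, 2 and 3. The groups lay clear of each other, and replicate 3 was close to the other YAPi libraries. HAND2 was thus 1.35-fold lower, at 118 ± 3.06 and 87.6 ± 4.49 CPM (log2 fold change -0.43 ± 0.06, edgeR adjusted p = 0.00273). HAND1 measured 15.4 and 15.2 CPM in GiWi and 18.1, 17.3 and 12.5 CPM in YAPi. Here the groups overlapped, since YAPi replicates 1 and 2 lay above GiWi and replicate 3 below. The log2 fold change of HAND1 was 0.06 ± 0.17 (edgeR adjusted p = 0.769); it was -0.13 with scaling by library size alone, -0.09 on log2(FPKM + 1) and -0.10 on log2(FPKM + 0.1). Without YAPi replicate 3 HAND1 passed as higher (0.21 ± 0.07, edgeR adjusted p = 0.00745), while HAND2 stayed lower (-0.39 ± 0.05, edgeR adjusted p = 2.14e-07).

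HAND1 spans chromosome 5, 153854532 to 153857824, on the minus strand in hg19. Compared per length, HAND2 was the more abundant of the pair in every library. HAND1 made up 15.3 and 14.7% of the summed FPKM of HAND1 and HAND2 in GiWi and 21.6, 20.6 and 17.1% in YAPi. Its share was larger in each YAPi library than in either GiWi library, by 4.78 percentage points on average (15 ± 0.45% and 19.8 ± 2.37%). An exact permutation test, two-sided, returned p = 0.2 (adjusted p = 0.267 over 4 shares of the HAND and MEF2 families), and 10 splits of 5 libraries cannot give less than 0.1.

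The HAND2 promoter is shown because its antisense neighbour HAND2-AS1, a noncoding RNA on the opposite strand, starts 144 bases upstream of HAND2 in hg19, and both fell. HAND2-AS1 measured 24.6 and 22.1 CPM in GiWi and 11.6, 12 and 9.25 CPM in YAPi (log2 fold change -1.09 ± 0.13, edgeR adjusted p = 0.00123). The spans of the 2 genes do not overlap in the deposited tables (HAND2 at chromosome 4, 174447652 to 174451378, minus strand). The sequence is the 250 bases before the HAND2 start in RefSeq (GRCh38.p14, chr4:173530230-173530479, minus strand). Capitals mark GATAA, the core of the site that GATA factors bind, searched on both strands:
HAND2: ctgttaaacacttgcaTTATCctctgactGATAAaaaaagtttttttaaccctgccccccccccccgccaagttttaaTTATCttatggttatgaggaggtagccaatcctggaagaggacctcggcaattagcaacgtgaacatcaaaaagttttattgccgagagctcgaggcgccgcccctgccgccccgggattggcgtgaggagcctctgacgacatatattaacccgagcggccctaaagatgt
The stretch holds 3 matches, 1 of them on the printed strand and the others as its reverse complement. Of all RefSeq promoter windows of this length, 20.4% hold at least 1 match and 0.675% hold 3 or more. The GATAA core was 1 of 7 motifs searched on both strands (the others were the NK2 element AAGTG, the E-box CANNTG, the TEAD element GGAATG, the T-box element GGTGTG, the MEF2 box and the CArG box) in 16 windows of the 7 regulators with a RefSeq promoter, so the match shown was chosen among many. A window of MEF2C (chromosome 5, 88884537 to 88884786, minus strand) also held 3 GATAA matches, and 6 of the 16 windows held at least 1. A match describes these letters and is not a measured binding site.

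Of the MEF2 genes, MEF2C fell most, MEF2D fell slightly and MEF2A did not pass. MEF2C, which in mice is required for looping and right ventricle formation of the heart, measured 23.8 and 23.7 CPM in GiWi and 10.4, 9.47 and 6.08 CPM in YAPi. Every YAPi library lay under GiWi by a wide margin, replicate 3 most of all. The means were 23.8 ± 0.0559 and 8.65 ± 2.27 CPM, a 2.74-fold decrease (log2 fold change -1.46 ± 0.22, edgeR adjusted p = 0.00285), and -1.26 ± 0.07 without YAPi replicate 3 (edgeR adjusted p = 1.25e-12). MEF2D, which is expressed in most tissues, measured 80.9 and 83.5 CPM in GiWi and 70.3, 70.1 and 69.7 CPM in YAPi (log2 fold change -0.23 ± 0.05, edgeR adjusted p = 0.0107). Its YAPi libraries were nearly equal, replicate 3 included. The MEF2D call was lost when GiWi replicate 1 or 2 or YAPi replicate 1 or 2 was left out (edgeR adjusted p = 0.0531, 0.0844, 0.0501 and 0.0544), and kept with an adjusted p of 2.31e-04 without YAPi replicate 3. MEF2A, likewise broadly expressed, measured 85 and 78.9 CPM in GiWi and 77.5, 78.7 and 65.1 CPM in YAPi (log2 fold change -0.15 ± 0.10, edgeR adjusted p = 0.237). The highest YAPi library of MEF2A lay just under the lower GiWi library. With scaling by library size alone, which moved the median of all tested genes to -0.18, MEF2A passed as lower (-0.34, edgeR adjusted p = 0.0421). In hg19, MEF2A spans chromosome 15, 100106133 to 100256693 (plus strand), and MEF2D chromosome 1, 156433513 to 156470634 (minus strand).

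The share of MEF2C in its family was lower in every YAPi library. MEF2C made up 11.7 and 11.8% of the summed FPKM of MEF2A, MEF2C and MEF2D in GiWi and 6.12, 5.56 and 3.88% in YAPi. The groups did not overlap, and the exact two-sided permutation p = 0.1 was the smallest possible (adjusted p = 0.267 over the 4 shares). MEF2A held 46.7 and 44.4% in GiWi and 51.2, 51.8 and 48.2% in YAPi (exact permutation p = 0.2), and MEF2D 41.6 and 43.8% in GiWi and 42.7, 42.6 and 47.9% in YAPi (exact permutation p = 0.8). Together the 3 genes came to 29.2 ± 1.24 FPKM in GiWi and 21.6 ± 1.54 FPKM in YAPi, on the authors' FPKM scale. On that scale the median of all tested genes was itself lower in YAPi, at -0.08 on log2(FPKM + 1) and -0.12 on log2(FPKM + 0.1).

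The paralogs encode closely similar MADS boxes, and the first 90 coding bases are shown to let their transcripts be told apart. They are read from GENCODE 29 transcripts (GRCh38), cross the first coding splice junction, and begin in the coding exons at chromosome 15, 99633120 to 99633173 (MEF2A, plus strand), chromosome 5, 88823735 to 88823788 (MEF2C, minus strand) and chromosome 1, 156483239 to 156483292 (MEF2D, minus strand). Capitals mark the 30 positions not shared by all 3 genes:
MEF2A: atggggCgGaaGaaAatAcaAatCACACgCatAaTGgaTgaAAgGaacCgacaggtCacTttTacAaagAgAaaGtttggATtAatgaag
MEF2C: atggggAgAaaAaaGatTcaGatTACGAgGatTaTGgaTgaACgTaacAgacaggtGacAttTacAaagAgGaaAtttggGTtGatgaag
MEF2D: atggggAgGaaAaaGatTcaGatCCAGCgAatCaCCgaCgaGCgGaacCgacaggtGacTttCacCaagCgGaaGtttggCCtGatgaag
The other 60 positions were identical, and pairs agreed at 77.8% (MEF2A and MEF2C), 74.4% (MEF2A and MEF2D) and 77.8% (MEF2C and MEF2D) of bases. Over whole transcripts the longest run shared by any pair was 20 bases, and by HAND1 and HAND2 23 bases, so that 0 windows of 50 bases were common to a pair. The antisense gene MEF2C-AS1 overlaps MEF2C (chromosome 5, 88014058 to 88179283 in hg19) by 137 bases and had at most 2.5 counts in a library, where MEF2C had 245.5 to 1276.5.

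MYOCD (chromosome 17, 12569207 to 12672265, plus strand, hg19) did not pass the test with or without YAPi replicate 3. It measured 51.9 and 51.1 CPM in GiWi and 51, 53.5 and 30.8 CPM in YAPi, so that YAPi replicates 1 and 2 lay beside GiWi and replicate 3 alone was low. The log2 fold change was -0.19 ± 0.23 (edgeR adjusted p = 0.515) with all libraries and 0.02 ± 0.05 (edgeR adjusted p = 0.73) without replicate 3. Its partner SRF, the serum response factor, measured 133 and 141 CPM in GiWi and 104, 106 and 109 CPM in YAPi and fell (log2 fold change -0.37 ± 0.05, edgeR adjusted p = 0.00275). SRF is not among the genes that the naming rule selects and was added after its values were seen.

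HOPX was the regulator that rose. It measured 3.49 and 2.98 CPM in GiWi and 10.4, 10.7 and 7 CPM in YAPi replicates 1, 2 and 3, from 187, 153.5, 491, 453.5 and 283 counts. All YAPi libraries lay above GiWi, with replicate 3 the lowest of them. The means were 3.23 ± 0.363 and 9.37 ± 2.06 CPM, a 2.9-fold rise (1.53 ± 0.22 in log2, edgeR adjusted p = 0.00267), and 1.71 ± 0.10 in log2 without YAPi replicate 3 (edgeR adjusted p = 2.94e-12). In FPKM it went from a mean of 2.38 to 6.38, from the 61.7th to the 76.5th percentile of all genes in the table. The HOPX entry, of 1184 bases, spans chromosome 4, 57514154 to 57522688, on the minus strand in hg19. RefSeq (GRCh38.p14) has HOPX promoter windows at 56656518 to 56656767 and at 56681297 to 56681546, and the level given is that of this entry. Outside the heart HOPX is also known from epithelia. Of 8 epithelial markers 6 rose, while KRT14 and TP63 did not pass. KRT5 passed narrowly (edgeR adjusted p = 0.0487), at 8.44, 9.73 and 227 CPM in YAPi replicates 1, 2 and 3. These 3 genes were named after their values were seen. The number that rose was 5 on both log2 FPKM scales and 8 with DESeq2. The summed level of the list was 1694 to 1864 CPM in GiWi and 2719 to 3174 CPM in YAPi. Most of that sum came from the keratin genes KRT8 and KRT18, at 1123 and 461 CPM in GiWi replicate 1 (KRT18 was named after its values were seen). Within YAPi, HOPX was lower by 0.59 log2 in replicate 3, where the epithelial list had a median difference of 0.98 and the liver and gut list one of -0.77. The epithelial genes did not move together there: EPCAM, an epithelial adhesion molecule, measured 3.34 and 3.34 CPM in GiWi and 211, 205 and 111 CPM in YAPi replicates 1, 2 and 3. The part of these cells in the HOPX result was not tested.

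SMYD1 and PROX1 passed the test as higher only when YAPi replicate 3 was left out, apart from SMYD1 under limma-voom and under a replicate block, and PROX1 under the block. SMYD1, which in mice is needed for ventricle formation and sarcomere assembly, measured 168 and 159 CPM in GiWi and 267, 272 and 126 CPM in YAPi. Replicates 1 and 2 lay far above GiWi and replicate 3 below, and the difference did not pass (log2 fold change 0.44 ± 0.34, edgeR adjusted p = 0.305). Without YAPi replicate 3 SMYD1 passed as higher (0.72 ± 0.05, edgeR adjusted p = 1.47e-11). It also passed with all libraries when limma-voom gave each a quality weight (0.69 ± 0.12, adjusted p = 0.00101). PROX1 measured 10.4 and 9.8 CPM in GiWi and 11.7, 11.4 and 6.08 CPM in YAPi (log2 fold change -0.05 ± 0.28, edgeR adjusted p = 0.884). Its direction turned without replicate 3 (0.19 ± 0.08, edgeR adjusted p = 0.0314). PROX1-AS1, an antisense gene whose start lies 1782 bases from that of PROX1 in hg19, had 3.08 and 2.74 CPM in GiWi and 0.744, 0.729 and 0.445 CPM in YAPi. All YAPi libraries lay far under GiWi, and it fell (-2.18 ± 0.26 in log2, edgeR adjusted p = 0.00133). A chosen list of 13 genes adjacent or antisense to a regulator, which is not a full set of neighbours, had 5 tested genes. Of these 1 rose, 3 fell and 1 did not pass, and fewer passed when either GiWi library was left out. SMYD1 spans chromosome 2, 88367299 to 88412902, and PROX1 chromosome 1, 214161278 to 214214847, both on the plus strand in hg19.

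**Figure D2:**
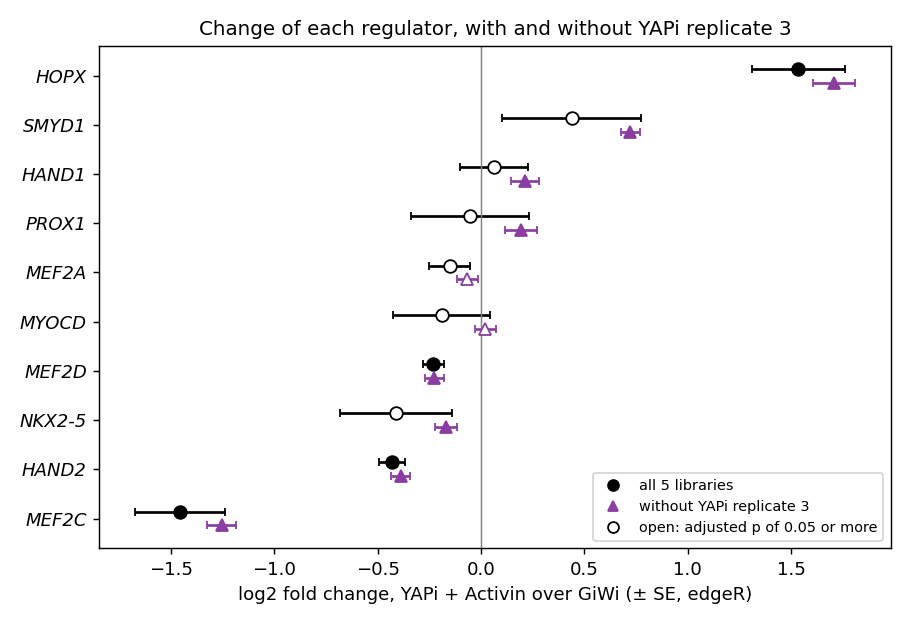
log2 fold change (horizontal axis, YAPi and Activin over GiWi) with its SE for each regulator, from all 5 libraries (circles) and without YAPi replicate 3 (triangles); filled symbols have an adjusted p under 0.05 in edgeR. HOPX, HAND2, MEF2D and MEF2C are filled in both, NKX2-5, HAND1, SMYD1 and PROX1 only without replicate 3, and PROX1 and MYOCD change sign; HAND1 is below 0 with scaling by library size alone.

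Compared per length, the order of the regulators was led by the same 3 genes in both groups. In GiWi the mean FPKM ran from HAND2 (43.6) over SMYD1 (32.3), NKX2-5 (26.6), MEF2A (13.3), MEF2D (12.5), HAND1 (7.7), MYOCD (5.25), MEF2C (3.43) and HOPX (2.38) to PROX1 (1.04), and no neighbours in that order overlapped between the 2 libraries. In YAPi it ran from SMYD1 (39.7) over HAND2 (29.3), NKX2-5 (18), MEF2A (10.9), MEF2D (9.54), HAND1 (7.28), HOPX (6.38), MYOCD (4.17) and MEF2C (1.13) to PROX1 (0.903). There SMYD1 and HAND2, NKX2-5 and MEF2A, MEF2A and MEF2D, HAND1 and HOPX, HOPX and MYOCD, and MEF2C and PROX1 had overlapping libraries. That overlap is between different libraries. Within each YAPi library the order held for all of these pairs except SMYD1 and HAND2, at 22.5 and 27.5 FPKM in YAPi replicate 3.

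The regulators differed in how far they dropped in YAPi replicate 3. Against the mean of replicates 1 and 2, SMYD1 was lower by 1.10 log2, PROX1 by 0.92, NKX2-5 by 0.89, MYOCD by 0.76, MEF2C by 0.70, HOPX by 0.59 and HAND1 by 0.50. MEF2A was lower by 0.26, HAND2 by 0.13 and MEF2D by 0.01. SMYD1, PROX1 and NKX2-5 came nearest to the sarcomere median of -1.22, while MEF2D was at the median of all tested genes. SMYD1 stood at the 4.12th percentile of all tested genes in this difference, NKX2-5 at the 5.9th, HAND2 at the 33.3rd and MEF2D at the 48.8th.

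**Figure D3:**
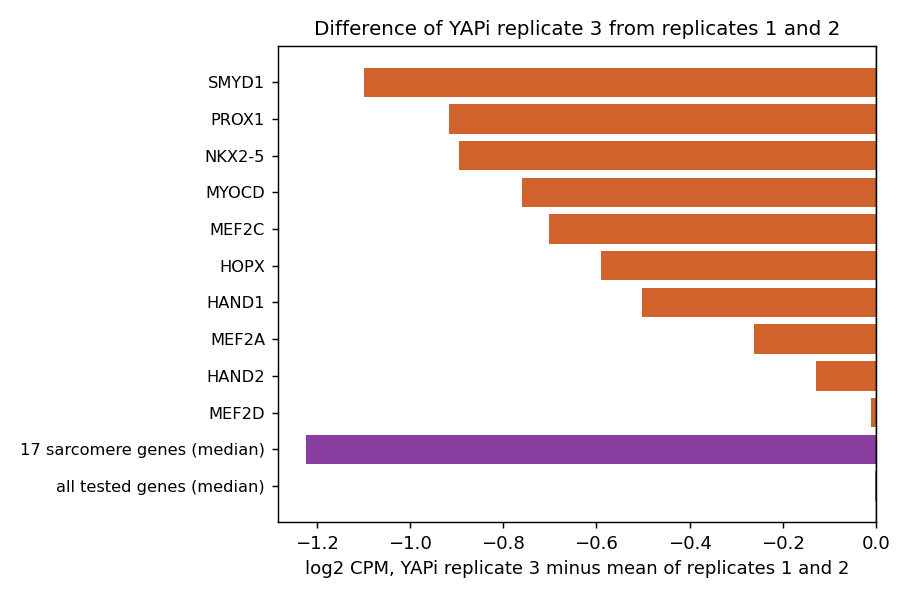
Difference in log2 CPM (horizontal axis) between YAPi replicate 3 and the mean of YAPi replicates 1 and 2 for each regulator, the median of the 17 sarcomere genes and the median of all tested genes. The bars run from -1.10 for SMYD1 to -0.01 for MEF2D, against -1.22 for the sarcomere median.

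Set against heart muscle transcripts, NKX2-5 overlapped between the groups, while SMYD1 and HOPX lay higher and MEF2C lower in every YAPi library. Each regulator's FPKM was divided by the summed FPKM of the 17 sarcomere genes, which came to 5199.5 and 4886 in GiWi and 4179, 4237 and 1941.5 in YAPi, and multiplied by 1000. The sum includes genes that themselves differed between the groups. Among them MYH6 fell (log2 fold change -4.20) and MYH7 rose (1.19). NKX2-5 gave 5.07 and 5.49 in GiWi and 5.13, 4.96 and 5.88 in YAPi. The groups overlapped, and the means of 5.28 ± 0.292 and 5.32 ± 0.491 differed by less than the spread between libraries (exact two-sided permutation p = 0.9). SMYD1 gave 6.48 and 6.34 in GiWi and 11.5, 11.5 and 11.6 in YAPi, so that replicate 3 no longer stood apart. This was 1.8-fold higher (6.41 ± 0.105 and 11.5 ± 0.0536, exact permutation p = 0.1, the smallest possible). HOPX gave 0.505 and 0.437 in GiWi and 1.71, 1.7 and 2.46 in YAPi, 4.16-fold higher (exact permutation p = 0.1). MEF2C gave 0.676 and 0.685 in GiWi and 0.329, 0.294 and 0.395 in YAPi, 0.499 times the GiWi level (exact permutation p = 0.1).

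For the other regulators the ratio in YAPi rested on replicate 3 or changed less. PROX1 gave 0.208 and 0.202 in GiWi and 0.261, 0.249 and 0.291 in YAPi (exact permutation p = 0.1), and MYOCD 1.04 and 1.05 in GiWi and 1.13, 1.16 and 1.46 in YAPi (exact permutation p = 0.3). HAND1 gave 1.52 and 1.54 in GiWi and 1.98, 1.86 and 2.92 in YAPi (exact permutation p = 0.2). HAND2 (8.37 and 8.93 in GiWi, 7.19, 7.15 and 14.2 in YAPi), MEF2D (2.41 and 2.54, then 2.29, 2.26 and 4.88) and MEF2A (2.7 and 2.58, then 2.75, 2.74 and 4.91) were far higher in replicate 3 than in any other library. In 7 of 10 regulators the groups did not overlap in this ratio, 6 higher and 1 lower, against 57.1% of all tested genes. The lowest adjusted p over the 10 was 0.25, and the smallest raw p possible with 5 libraries is 0.1.

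**Figure D4:**
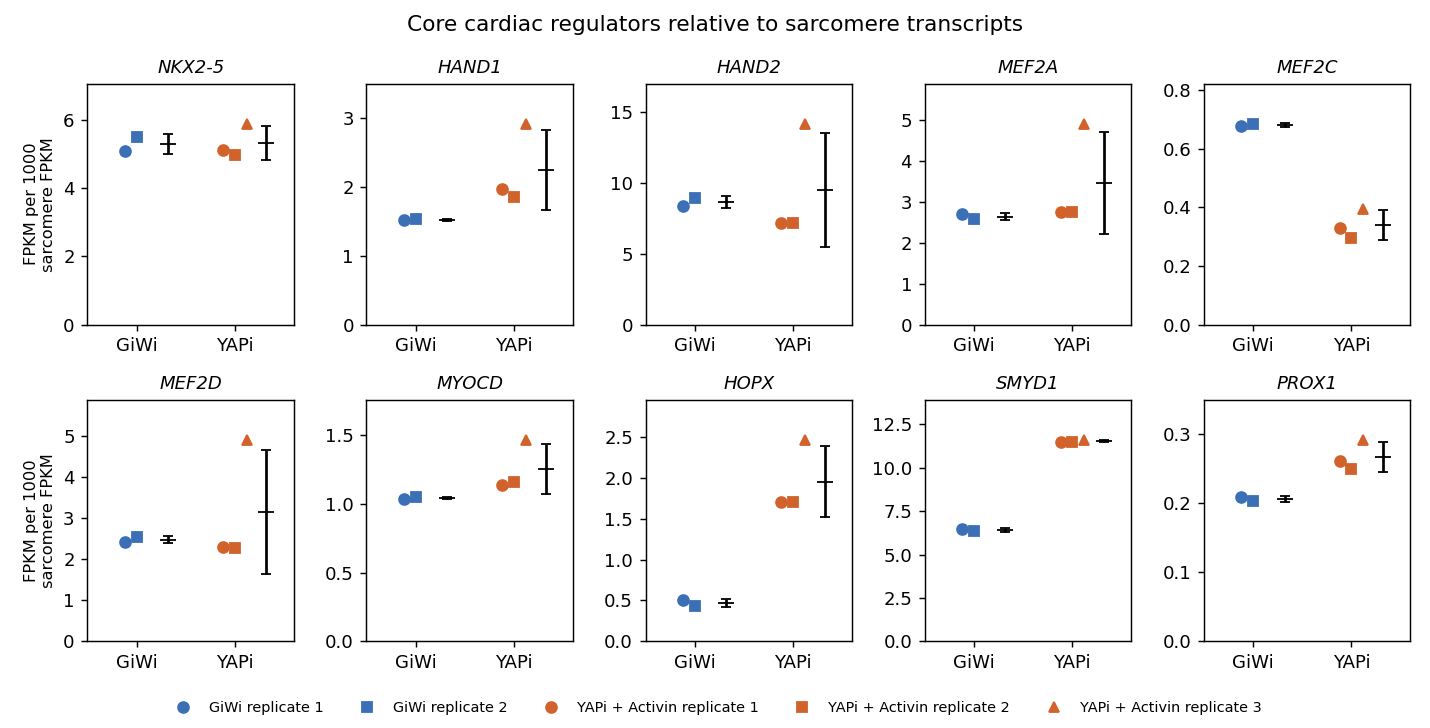
FPKM of each regulator per 1000 FPKM of 17 summed sarcomere genes (vertical axis, from 0), 1 panel per gene; points are libraries, with the mean and SD (n = 2 and n = 3) beside them. SMYD1 lies at 11.5 to 11.6 in all YAPi libraries and 6.34 to 6.48 in GiWi, NKX2-5 overlaps between groups, and HAND2, MEF2A and MEF2D are highest in YAPi replicate 3.

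Most listed partners and upstream regulators of these genes were lower in YAPi than in GiWi. Of 18 such genes 17 were tested, 2 rose, 12 fell and 3 did not pass, with a median log2 fold change of -1.02 against 0.01 for all tested genes. For this and the lists that follow, the background is 30.2% of all tested genes higher and 26.9% lower. The 4 with the smallest p were ZFPM2, a GATA cofactor (-1.43), the T-box factors TBX2 (-1.02) and TBX5 (-3.79), and the homeodomain factor MEIS2, which measured 213 and 212.7 CPM in GiWi and 95.5, 98.3 and 107 CPM in YAPi (-1.09 ± 0.07, edgeR adjusted p = 0.000152). These counts were the same when YAPi replicate 1 or 2 was left out. Without YAPi replicate 3, 15 fell, where 74.9% of all tested genes were called in either direction.

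Of the listed genes that act on MEF2 proteins, with MEF2B itself, about as many fell as did not pass the test. Of 16 genes (class IIa deacetylases, calcium-dependent kinases, calcineurin subunits, MAP kinases and MEF2B) 0 rose, 9 fell and 7 did not pass, at a median log2 fold change of -0.38. PPP3CA, a catalytic subunit of calcineurin, measured 58.5 and 52.8 CPM in GiWi and 36.4, 37.5 and 41.5 CPM in YAPi (-0.53 ± 0.08, edgeR adjusted p = 0.00333). PRKD1, a kinase that drives class IIa deacetylases out of the nucleus, fell by 0.58 and the deacetylase HDAC5 by 0.41 on the log2 scale, and CAMK2G by 0.33. The calcium-dependent kinase gene CAMK2A, singled out after its values were seen, had the largest fall on the list. It measured 9.93 and 8.08 CPM in GiWi and 4.17, 4.02 and 1.73 CPM in YAPi (-1.44 ± 0.37, edgeR adjusted p = 0.0192). The count depended on the libraries, as did that of all tested genes. Without YAPi replicate 3, 13 fell and 1 rose, where 6394 of 17519 tested genes fell and 6721 rose. Fewer fell without either GiWi library, on this list and among all tested genes. With scaling by library size alone 14 fell.

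Most listed dimer partners and inhibitors of HAND proteins fell as well. Of 9 genes 0 rose, 7 fell and 2 did not pass, at a median log2 fold change of -0.63. The E protein TCF12 measured 138 and 139 CPM in GiWi and 87, 85.7 and 90.1 CPM in YAPi (-0.66 ± 0.05, edgeR adjusted p = 0.000316). The groups of TCF12 lay far apart and its replicate 3 was close to the other YAPi libraries. Over the whole list, the median log2 difference of YAPi replicate 3 from the other YAPi libraries was 0.64. TWIST1, a related helix-loop-helix factor that competes for E proteins, measured 45 and 47.5 CPM in GiWi and 9.48, 8.84 and 14.2 CPM in YAPi (-2.09 ± 0.20, edgeR adjusted p = 0.000684). TCF3 fell by 0.61 and ID2, an inhibitor that lacks the DNA-binding part, by 0.91 on the log2 scale. Without YAPi replicate 3, 8 of the list fell, where 74.9% of all tested genes were called in either direction. As over all tested genes, fewer fell without either GiWi library.

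The SMYD family and partners of SMYD1, HOPX and PROX1 moved in both directions. Of 12 genes 4 rose, 4 fell and 4 did not pass, at a median of 0.06. This is near the background, where 30.2% of all tested genes rose and 26.9% fell. That balance depended on the scaling, with 2 higher and 6 lower by library size alone, and 2 and 5 on both log2 FPKM scales. SMYD3, a paralog of SMYD1, measured 13.8 and 14.9 CPM in GiWi and 35.4, 35.5 and 49 CPM in YAPi (1.48 ± 0.17, edgeR adjusted p = 0.00119); unlike SMYD1 it was highest in YAPi replicate 3. NR5A2, a nuclear receptor whose activity PROX1 represses in liver, had 0.336 and 0.213 CPM in GiWi and 11.6, 11.7 and 6.7 CPM in YAPi and rose (5.17 ± 0.40, edgeR adjusted p = 0.000317). RORA fell by 1.06 and SMARCD3, the heart subunit of the BAF chromatin remodeller, by 0.60 on the log2 scale. Without YAPi replicate 1 or 2, 2 of the list rose and 4 fell in each case. The genes called in all then numbered 8086 and 7855, against 10065 with all libraries. Both this list and all tested genes had fewer calls without either GiWi library.

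Heart muscle genes known as downstream of the regulators changed in both directions. Of 26, 6 rose, 6 fell and 14 did not pass, at a median log2 fold change of -0.24. Over all tested genes 57.1% were called, 30.2% higher and 26.9% lower, so these calls are no more frequent than in the background. The split moved with the scaling, to 3 higher and 7 lower by library size alone and on log2(FPKM + 1), and to 4 and 7 on log2(FPKM + 0.1). GJA5, the connexin of atrial and conduction muscle that NKX2-5 and TBX5 activate in mice, measured 102 and 99.9 CPM in GiWi and 17.6, 17.7 and 11.8 CPM in YAPi (-2.68 ± 0.18, edgeR adjusted p = 0.000212). ACTA1, skeletal alpha actin, measured 5.86 and 6.24 CPM in GiWi and 12.2, 13.4 and 10.1 CPM in YAPi (0.97 ± 0.14, edgeR adjusted p = 0.00253). The atrial myosin heavy chain gene MYH6 fell (-4.20) and the ventricular light chain gene MYL2 rose (4.89). The list's median log2 difference in YAPi replicate 3 from the other YAPi libraries was -1.26. Many of its genes, TNNT2 and MYH6 among them, also belong to the 17 sarcomere genes, so this median partly repeats theirs of -1.22. Without YAPi replicate 3, 12 rose and 12 fell, where 74.9% of all tested genes were called. Without YAPi replicate 1 or 2, 4 rose and 5 and 4 fell. Calls were fewer without either GiWi library, on this list and among all tested genes.

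**Figure D5:**
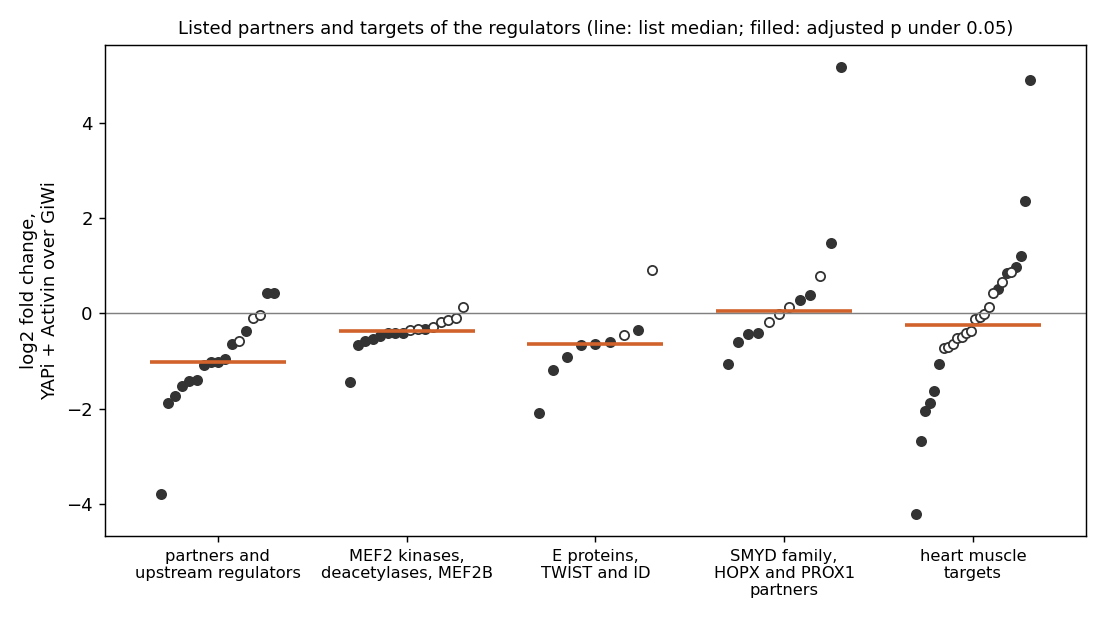
log2 fold change (vertical axis, YAPi and Activin over GiWi) of every tested gene on 5 lists; filled points have an adjusted p under 0.05 in edgeR and the line is the list's median. The medians are -1.02, -0.38, -0.63, 0.06 and -0.24 from left to right.

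The genes whose pattern over the 5 libraries lay nearest to a regulator were sought among 9766 genes with a mean of at least 10 CPM, by the Euclidean distance between centred log2 CPM. For NKX2-5 they were SYNPO2L (0.092), SLC4A3 (0.135) and MYL4 (0.147), and for SMYD1 they were PADI2 (0.108), XIRP1 (0.147) and RRAGD (0.179). For MEF2C they were PPP1R14C (0.131), GABBR1 (0.149) and IRX1 (0.149), and for HOPX IDH1 (0.114), SYT4 (0.125) and ARG2 (0.143). Among the regulators themselves the closest pair was MYOCD and PROX1 (0.202), followed by HAND2 and MEF2D (0.242). MEF2C and HOPX lay far from every other regulator, with nearest distances of 1.14 (to NKX2-5) and 1.33 (to SMYD1). With 5 libraries these distances are a description.

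Several of the regulators are also expressed outside heart muscle, and markers of other cell types differed between the groups. All 9 macrophage markers rose, from a summed 2.22 to 2.59 CPM in GiWi, with C1QB and CD163 at 0 counts, to 138 to 365 CPM in YAPi. Of 12 neural and retinal markers 11 rose and 1 fell (67.6 to 69.9 CPM, with ELAVL4 at 0 counts, and 332 to 449.7 CPM). Of 9 tested liver and gut markers 8 rose and 1 fell (572 to 599 CPM and 935 to 1067 CPM). The gene that fell was the liver gene ALB, which made up most of the GiWi sum. It measured 402 and 424 CPM in GiWi and 52.6, 41.2 and 17.8 CPM in YAPi (named after its values were seen). Most of the endothelial sum came from KDR and TEK, at 187 and 86.3 CPM in GiWi replicate 1 (both named after their values were seen). PECAM1 rose from 0.355 and 0.251 CPM in GiWi to 1.55, 2.05 and 0.668 CPM in YAPi. FLT4 fell from 1.42 and 1.28 CPM to 0.298, 0.4 and 0.247 CPM. Of 9 endothelial markers 4 rose and 3 fell (279.9 to 287 CPM and 331 to 417 CPM). This count was 2 and 3 without YAPi replicate 2. It was 2 and 4 with scaling by library size alone or on log2(FPKM + 0.1), and 1 and 4 on log2(FPKM + 1). Without either GiWi library it was smaller, as was that of all tested genes. Of 8 smooth muscle markers 3 rose and 3 fell (1807 to 1916 CPM and 2102 to 2487 CPM). By library size alone 1 rose and 4 fell, and on both log2 FPKM scales 2 rose and 3 fell. Fewer passed without either GiWi library, on this list and among all tested genes. Of 8 fibroblast markers 5 rose and 3 fell (59629 to 59920 CPM and 106250 to 127000 CPM). Most of that sum came from the collagen genes COL1A1, COL1A2 and COL3A1, at 16835.5, 10117 and 29905 CPM in GiWi replicate 1. The 3 that fell were PDGFRA (log2 fold change -1.76), POSTN (-1.25) and TCF21 (-0.34). COL1A1, COL3A1, POSTN and TCF21 were named after their values were seen. Of 8 epicardial and mesothelial markers 6 fell (1299 to 1362 CPM and 279 to 525 CPM). The part of these cells in the levels of the 10 regulators was not tested.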

How the data were processed

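Polyadenylated RNA of 5 libraries was sequenced on an Illumina instrument from strand-preserving libraries, according to the labels. Tools listed in the submitters' processing notes are STAR 2.5.1, HOMER, FastQC 0.11.5 and edgeR 3.16.1, and the listed build is hg19; their roles are not given. The authors deposited exon counts per gene, treated here as an estimated count because 34.7% of values are not whole; they were rounded before testing. FPKM values were deposited by the authors and used for levels between genes, shares and ratios. Strand settings and read length are not given in the sources used here.

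Groups came from the labels. Counts were compared by the quasi-likelihood test of edgeR 4.0.16 (R 4.3.3) over all 5 libraries with TMM factors, genes kept by filterByExpr at a count of 10 and a total of 15, and a threshold of 0.05 after Benjamini-Hochberg adjustment. CPM are TMM-scaled; log2 CPM used a prior count of 2. Shares and ratios had an exact two-sided permutation test over libraries. The 10 genes and the 15 gene lists were chosen with earlier results of these data known. Named genes were the 10 regulators, from each list the genes of smallest p (up to 4), and the 3 nearest patterns of a regulator. On simulated counts for this comparison (17410 genes tested), the test found 79% of 100 genes given a log2 fold of 1. It found 100% of 100 given a log2 fold of 2, and made 14 false calls. The simulation used a common dispersion of 0.0232 for all genes, changed only genes of higher counts and set no library apart. The recovery with a library like YAPi replicate 3 was not tested. Promoters came from RefSeq (GRCh38.p14) and transcripts from GENCODE 29. Alternatives used RLE factors, library size alone, other filters, DESeq2 1.42.0, limma 3.58.1 (voom with sample weights, and log2 FPKM with pseudocounts 1 and 0.1), robust edgeR, each library left out and a replicate block. Figures were drawn with matplotlib 3.10.9.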

Additional observations from a re-analysis of the deposited data

How the results depend on the processing

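HAND2, MEF2C and HOPX kept their direction and passed the threshold in all 15 alternatives, with adjusted p up to 0.0332, 0.0292 and 0.0352; MYOCD passed in 0 of them. With each library left out in turn, the log2 fold change ran from -0.54 to -0.17 for NKX2-5, -0.026 to 0.21 for HAND1, -0.26 to -0.21 for MEF2D, -0.33 to 0.021 for MYOCD, 0.27 to 0.72 for SMYD1 and -0.20 to 0.19 for PROX1; the regulators called numbered 3 to 8 and all genes called 5909 to 13115. Leaving out a GiWi library leaves 1, assumed to vary like the YAPi libraries. With the replicate number as a block, YAPi replicate 3 has no GiWi partner and drops out of the contrast. The labels do not pair the numbers, and deviations of same-numbered libraries correlated at 0.0217 across genes. The block gave -0.17 for NKX2-5, 0.21 for HAND1, 0.72 for SMYD1, 0.019 for MYOCD and 0.19 for PROX1, with 8 regulators called. Limma-voom with sample weights gave 0.19 for HAND1 and 0.69 for SMYD1, both past the threshold, and 0.0012 for MYOCD and 0.16 for PROX1. Scaling by library size alone gave -0.13 for HAND1 and -0.34 for MEF2A, which passed; it moved the median of all genes to -0.18. HAND1 was at -0.086 on log2(FPKM + 1) and -0.10 on log2(FPKM + 0.1), where the median of all genes was -0.08 and -0.12. The log2 ratio of SMYD1 to sarcomere content was 0.85, 0.93 with CPM and 0.96 with TNNT2 alone. For NKX2-5 it was 0.0085, 0.10 with CPM and 0.12 with TNNT2 alone. DESeq2, RLE factors, robust edgeR and both other filters called the same number of regulators, 4. The cause of these changes was not tested. HOPX had as few as 153.5 counts in a library, which limits its precision.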
